A study of Oryctolagus cuniculus with 8 samples.

Results

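The interleukin-1 family and its receptors were followed in stromal cells grown from 2 fat depots of the rabbit. The genes were taken by symbol from a list of 9: the ligands IL1A, IL1B, IL18 and IL33, the receptor antagonist IL1RN, and the receptors IL1R1, IL1RAP, IL1R2 and IL1RL1. Of these, 8 are among the 20586 genes listed, and IL33 was not analysed here. The family was chosen with the difference of IL1A between the cell types already known. The differences of the 8 genes between the cell types are therefore given as a description, with no p-value.

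IPFSCs are stem cells of the infrapatellar fat pad, a fat body inside the knee joint, and ScASCs are stem cells of inguinal subcutaneous adipose tissue. Both were taken from the same 4 male New Zealand white rabbits aged 4 months, with no treatment stated, and were sequenced as bulk RNA at passage 1, giving 4 IPFSC and 4 ScASC libraries. Libraries of the same number were taken as the same rabbit, which the labels do not state. Fat pad and inguinal tissue were digested with collagenase and the cells were grown out on plastic in serum, so each library is a mixed outgrowth and not a sorted population. Levels are given as RPKM (read counts scaled to library depth and to transcript length), which can be compared between genes. Differences are IPFSCs minus ScASCs in log2(RPKM + 1), and the added 1 makes them smaller than the true ratio where levels are low.

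Interleukin-1 signals start when IL-1α (encoded by IL1A) or IL-1β (IL1B) binds the receptor IL1R1, which then recruits the accessory chain IL1RAP and, through MYD88 and IRAK kinases, turns on NF-κB and MAP kinases. The antagonist encoded by IL1RN occupies IL1R1 without recruiting the accessory chain, and IL1R2 is a decoy that binds ligand but lacks the signalling domain. IL-1α is active as the precursor and often stays within the cell or on its surface, whereas the precursors of IL-1β and interleukin 18 need cleavage, typically by caspase-1. In the joint, IL-1 is known for driving cartilage breakdown, and in stromal cells for inducing cytokines, chemokines and matrix proteases.

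The libraries were alike in depth, at 0.825 to 1.00 of the deepest library. The stromal genes COL1A1, COL1A2, COL3A1, PDGFRB, THY1, LUM, DCN and VIM had summed levels of 9432 to 13670 RPKM in IPFSCs and 14105 to 20227 RPKM in ScASCs. Of these, COL1A1, COL1A2 and COL3A1 were lower in IPFSCs without overlap, while PDGFRB, THY1, DCN and VIM overlapped. LUM was higher in IPFSCs without overlap, at 363 to 736 RPKM against 98.8 to 329 RPKM in ScASCs. Of 9 macrophage genes, PTPRC, CD163 and TYROBP were listed at 0 in all 8 libraries. The summed level, which CD68 nearly made up, was 13.5 to 27.9 RPKM in IPFSCs and 11.8 to 22.6 RPKM in ScASCs. CD14 had 0.172, 0.0898, 0.251 and 1.01 RPKM in IPFSC replicates 1 to 4 and 0.598 to 1.06 RPKM in ScASCs. AIF1 had 0 to 0.861 RPKM in IPFSCs and 0.135 to 0.448 RPKM in ScASCs. MRC1 leaned the other way, with 0.0769 to 0.197 RPKM in IPFSCs and 0 to 0.0411 RPKM in ScASCs. CSF1R and ITGAM were at most 0.162 RPKM in any library. The 4 listed lymphocyte genes, the 5 granulocyte and mast cell genes and the 7 endothelial genes summed to at most 0.170, 0.0979 and 0.242 RPKM in any library, in this order of lists. Of 9 epithelial and keratinocyte genes, 7 were listed, and KRT5 did not exceed 0.0353 RPKM in any library. Their sum was 3.48 to 8.76 RPKM in IPFSCs and 4.07 to 66.1 RPKM in ScASCs, and the highest value came from KRT8 in ScASC replicate 1 (63.8 RPKM). The synovial lining gene CLIC5 was listed at 0.237 to 0.436 RPKM in the 4 IPFSC libraries and at 0 in the 4 ScASC libraries, PRG4 being not analysed here. The 4 listed adipocyte genes summed to 3.89 to 8.46 RPKM in IPFSCs and 2.23 to 23.3 RPKM in ScASCs, with the highest value again in ScASC replicate 1 from LEP. The part of these markers in the results was not tested. In such bulk samples, fewer cells that express a gene and less RNA per cell cannot be told apart.

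IL1A was the member with the widest gap between the cell types. IL1A (ENSOCUG00000008771) had 0.882, 0.472, 0.371 and 1.14 RPKM in IPFSC replicates 1 to 4, against 12.9, 12.8, 11.4 and 13.8 RPKM in ScASC replicates 1 to 4. Every IPFSC library thus lay more than 10 RPKM below the lowest ScASC library, and the ScASC libraries lay close together. The means were 0.716 ± 0.358 RPKM in IPFSCs and 12.7 ± 0.970 RPKM in ScASCs (SD, n = 4 each), and the ratio of ScASCs to IPFSCs was 12.1 to 30.8 within the 4 rabbits. On the log2 scale the difference was −3.02 (standard error 0.16), the spread being larger in IPFSCs (SD 0.30) than in ScASCs (SD 0.10).

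The number of reads behind these values can be recovered, since the RPKM of a gene in different libraries are whole multiples of what 1 read is worth. For IL1A the smallest whole numbers that fitted all 8 libraries, to within 0.0123 of a read, were 37, 19, 16 and 47 reads in IPFSC replicates 1 to 4 and 589, 481, 518 and 571 reads in ScASC replicates 1 to 4. The IL1A transcript was thus present in every IPFSC library, although at few reads. Among all genes of a library it ranked between places 10929 and 12020 in IPFSCs and between places 5459 and 6139 in ScASCs. ScASC replicate 1, with the high KRT8 level, had about the same IL1A level as ScASC replicates 2 to 4. Whether KRT8 and IL1A are linked was not tested.

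IL1B, the other agonist of IL1R1, stayed at trace level in both cell types. IL1B (ENSOCUG00000023958) had 0.311, 0.788, 0.0865 and 0.136 RPKM in the IPFSC libraries, against 0.246, 0.0992, 0.453 and 0.360 RPKM in the ScASC libraries. These values rest on 2 to 17 reads per library in IPFSCs and on 2 to 11 reads in ScASCs. The groups overlapped, with the highest value in IPFSC replicate 2, and IL1B was higher in IPFSCs in 2 rabbits and lower in 2. The ratio of IL1A to IL1B within a library was 0.599 to 8.39 in IPFSCs and 25.2 to 129 in ScASCs, and only in IPFSC replicate 2 was IL1B the more abundant agonist.

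IL1RN, the antagonist, was lower in the IPFSCs of each rabbit but its groups overlapped. IL1RN (ENSOCUG00000004161) had 0.345, 0.262, 0.244 and 1.02 RPKM in the IPFSC libraries, against 1.04, 1.82, 0.610 and 3.88 RPKM in the ScASC libraries. Replicate 4 was the highest in either cell type. The reads were 11, 8, 8 and 32 in IPFSCs and 36, 52, 21 and 122 in ScASCs, and the difference on the log2 scale was −0.85 (standard error 0.34), or −0.55 without ScASC replicate 4. The ratio of IL1RN to IL1A within a library was 0.392 to 0.897 in IPFSCs and 0.0534 to 0.282 in ScASCs, with no overlap. There was thus less antagonist transcript per IL1A transcript in every ScASC library than in any IPFSC library. Because IL1A is the denominator and its difference was known at the choice of the family, this separation is no result apart from that of IL1A. The deposited values do not separate the secreted from the intracellular form of the antagonist.

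**Figure D1:**
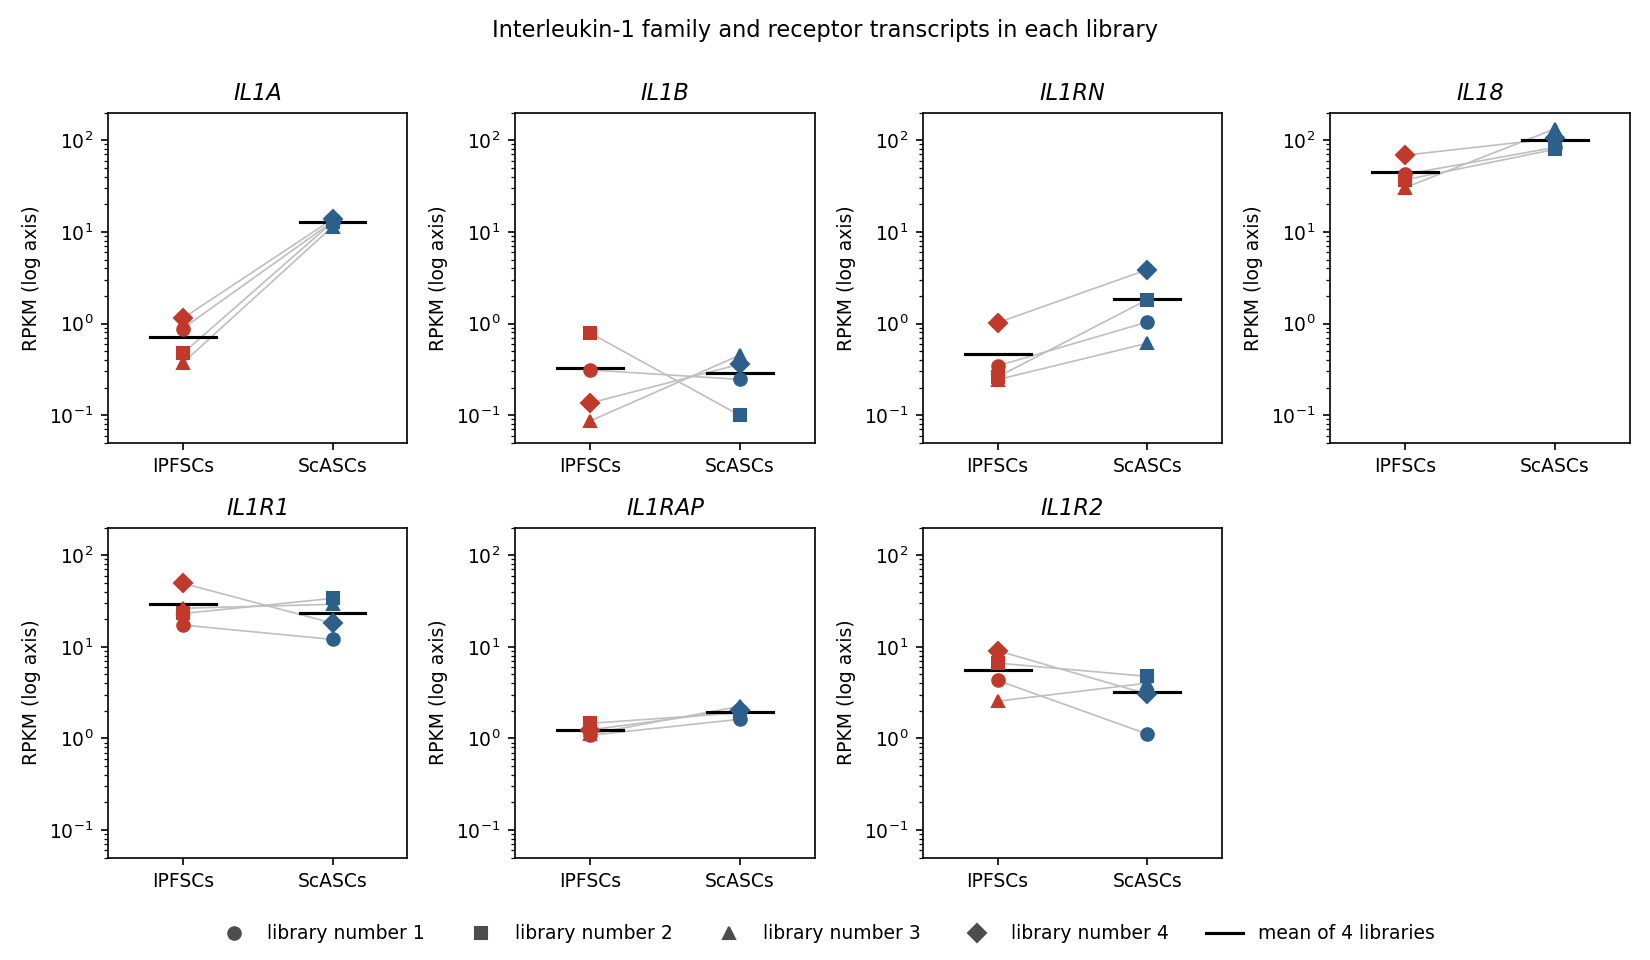
RPKM of 7 family genes (log axis, the same for every panel) in the 4 IPFSC libraries (red, left) and the 4 ScASC libraries (blue, right). Each symbol is 1 library, grey lines join libraries of the same number, taken as the same rabbit, and black bars are means; IL1A lies at 0.371 to 1.14 RPKM in IPFSCs and at 11.4 to 13.8 RPKM in ScASCs, while IL1B and IL1R1 overlap. IL1RL1, listed at 0 in 7 libraries, is not drawn.

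IL18 was the most abundant member in both cell types and was lower in IPFSCs. IL18 (ENSOCUG00000005255), the gene of a cytokine best known for inducing interferon-γ in lymphocytes, had 42.4, 37.0, 30.4 and 68.7 RPKM in the IPFSC libraries, against 83.7, 79.6, 133 and 105 RPKM in the ScASC libraries. The groups did not overlap, IPFSC replicate 4 coming nearest to the ScASCs. The difference on the log2 scale was −1.19 (standard error 0.25), and the ratio of ScASCs to IPFSCs within a rabbit was 1.53 to 4.38. With 761 to 1642 reads in IPFSCs and 1735 to 3499 in ScASCs, IL18 was also the best counted member. Transcripts of its receptor chains were near 0, with IL18R1 at no more than 0.297 RPKM and IL18RAP at no more than 0.0591 RPKM in any library. IL18BP, whose product binds and neutralises interleukin 18, had 5.84 ± 1.68 RPKM in IPFSCs and 5.09 ± 1.75 RPKM in ScASCs (SD, n = 4 each), a log2 difference of 0.17 (adjusted p = 0.832 in limma).

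IL1R1, the signalling receptor, was plentiful in both cell types. IL1R1 (ENSOCUG00000006957) had 17.3, 23.1, 26.3 and 49.4 RPKM in the IPFSC libraries, against 12.0, 33.8, 29.1 and 18.2 RPKM in the ScASC libraries. The groups overlapped, with 2 rabbits higher in IPFSCs and 2 lower, and the log2 difference of 0.30 was smaller than its standard error of 0.38. It was 0.02 without IPFSC replicate 4, 0.04 without ScASC replicate 1, and 0.51 without either IPFSC replicate 1 or ScASC replicate 2. IL1R1 was represented by 529 to 1963 reads per library.

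IL1RAP, the accessory chain that IL1R1 needs to signal, was less abundant than IL1R1 in every library and was slightly lower in IPFSCs. IL1RAP (ENSOCUG00000004870) had 1.08, 1.46, 1.11 and 1.24 RPKM in the IPFSC libraries, against 1.62, 1.90, 2.24 and 2.05 RPKM in the ScASC libraries. The groups did not overlap, although the gap between the nearest libraries was small, and the log2 difference was −0.41 (standard error 0.12). The reads numbered 118 to 153 in IPFSCs and 186 to 264 in ScASCs. The ratio of IL1RAP to IL1R1 within a library was 0.0251 to 0.0633 in IPFSCs and 0.0564 to 0.135 in ScASCs, and these ranges overlapped.

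IL1R2, the decoy receptor, leaned the other way, with overlapping groups. IL1R2 (ENSOCUG00000016746) had 4.30, 6.65, 2.55 and 9.07 RPKM in the IPFSC libraries, against 1.12, 4.76, 4.02 and 3.05 RPKM in the ScASC libraries. It was higher in the IPFSCs of 3 rabbits and lower in those of rabbit 3, with a log2 difference of 0.64 (standard error 0.39). It was 0.34 without ScASC replicate 1 and 0.40 without IPFSC replicate 4. The ratio of IL1R2 to IL1R1 within a library was 0.0968 to 0.288 in IPFSCs and 0.0927 to 0.168 in ScASCs, so the signalling receptor was the more abundant of the pair in all 8 libraries. IL1RL1, the receptor of interleukin 33, was listed at 0 in all 4 IPFSC libraries and in 3 ScASC libraries, and at 0.0240 RPKM in ScASC replicate 3.

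**Figure D2:**
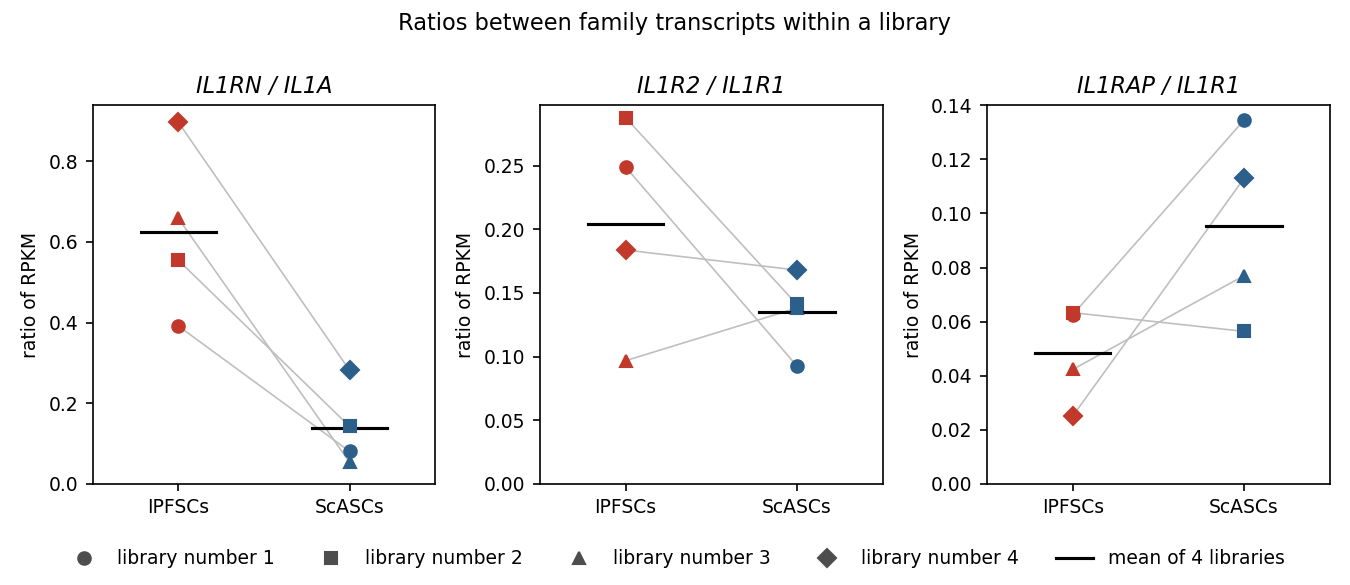
Ratio of RPKM of IL1RN to IL1A, IL1R2 to IL1R1 and IL1RAP to IL1R1 (linear axes from 0) within each IPFSC library (red, left) and each ScASC library (blue, right), with means as black bars and grey lines between libraries of the same number. The ratio of antagonist to IL1A is 0.392 to 0.897 in IPFSCs and 0.0534 to 0.282 in ScASCs, and the other ratios overlap between the cell types. The first ratio has IL1A as its denominator, so its separation is no result apart from that of IL1A.

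In order of mean level, IPFSCs had IL18 (44.6 RPKM), IL1R1 (29.0), IL1R2 (5.64), IL1RAP (1.23), IL1A (0.716), IL1RN (0.468), IL1B (0.330) and IL1RL1 (0 RPKM). The ranges of neighbours overlapped for IL18 and IL1R1, for IL1RAP and IL1A, for IL1A and IL1RN and for IL1RN and IL1B. In ScASCs the order was IL18 (100.4 RPKM), IL1R1 (23.3), IL1A (12.7), IL1R2 (3.24), IL1RAP (1.95), IL1RN (1.84), IL1B (0.289) and IL1RL1 (0.00600 RPKM). There the ranges overlapped for IL1R1 and IL1A, for IL1R2 and IL1RAP and for IL1RAP and IL1RN. IL1A thus stood above the decoy receptor, the accessory chain and the antagonist in all 4 ScASC libraries and below IL1RAP and IL1R2 in all 4 IPFSC libraries.

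Of the 8 members, 6 had a mean above 1 RPKM in at least 1 cell type and entered the test over all genes. IL1A and IL1RN entered only through their level in ScASCs, and IL1B and IL1RL1 did not enter. The study's choice of edgeR needs read counts for all genes, so limma's moderated test on log2(RPKM + 1) was used, with Benjamini-Hochberg adjustment over 11294 genes and a call at an adjusted p under 0.05. By this test 4.98% of all genes were called (2.31% lower and 2.67% higher in IPFSCs). Calls of the members themselves are not given, because the family was chosen with this contrast known. For 3 of the 6, all IPFSC libraries lay below all ScASC libraries, beside 5.73% of all genes, and for 0 of the 6 they lay above, beside 6.07%. The median log2 difference of the 6 was −0.63, and that of all genes tested was −0.0035. Since the family was chosen on this contrast, nothing is read from these counts.

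Several members are neighbours on the chromosome. By the order of protein-coding genes in RefSeq (assembly mOryCun1.1, another assembly than that of the deposited values), IL1A, IL37, IL1B, IL36G, IL36A, IL36RN, IL1F10 and IL1RN follow each other, 5 of these 8 being listed. Within this block, IL36A was listed at 0 in all 8 libraries, and IL36G at 0 in all but ScASC replicate 3 (0.0582 RPKM). IL1RN, at the other end of the block, was lower in the IPFSCs of all 4 rabbits, as IL1A was, but its groups overlapped. IL1B, which lies between them, was higher in the IPFSCs of 2 rabbits and lower in those of 2, and did not enter the test. CKAP2L, a mitotic spindle gene next to IL1A, had 18.2 ± 7.55 RPKM in IPFSCs and 19.3 ± 7.27 RPKM in ScASCs (SD, n = 4 each), a log2 difference of −0.10 (adjusted p = 0.953 in limma). PSD4, next to IL1RN, had a log2 difference of −0.18 (adjusted p = 0.639), and PAX8, a transcription factor gene next to PSD4, one of 0.95 (adjusted p = 0.0417). PAX8 had 1.27 ± 0.638 RPKM in IPFSCs and 0.140 ± 0.0768 RPKM in ScASCs, and entered the test only through its level in IPFSCs. It did not enter when the filter was set on the mean over all libraries. The call for PAX8 was lost without any 1 of 7 of the 8 libraries, all but IPFSC replicate 1 (adjusted p = 0.0688 to 0.109, with 0.0188 to 0.109 across the fits it entered).

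The receptor genes IL18RAP, IL18R1, IL1RL1, IL1RL2, IL1R1 and IL1R2 form a second block in the same annotation, of which IL1RL2, IL1R1 and IL1R2 were above 1 RPKM on average. IL1RL2, the receptor of the interleukin-36 cytokines, had 0.687, 2.49, 4.19 and 14.4 RPKM in the IPFSC libraries, against 0.495, 3.57, 6.03 and 7.65 RPKM in the ScASC libraries. The rabbits differed more than the cell types, number 1 being the lowest and number 4 the highest in either, and the log2 difference was 0.05 (adjusted p = 0.993 in limma). MAP4K4, a kinase gene beside IL1R2, rose to 207 ± 25.7 RPKM in IPFSCs, against 130 ± 17.7 RPKM in ScASCs (SD, n = 4 each), a log2 difference of 0.67 (adjusted p = 0.0184). Its call was lost without IPFSC replicate 3 (adjusted p = 0.0625, with 0.00543 to 0.0625 across the fits run).

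The genes that act with the family were counted in 7 lists of 125 genes, of which 94 were listed and 73 tested. The lists were chosen with earlier results of these data known, so the share called in a list is a description. In limma, 1 of the 73 rose in IPFSCs, 3 fell and 69 were not called, which is 5.48% called beside 4.98% of all genes. The median log2 fold change of the 73 was −0.08. With all 8 libraries the share called was near that of all genes. In every fit without 1 library it was above that of all genes, as with 5.48% beside 2.79% without IPFSC replicate 3. Without ScASC replicate 1, 2 rose and 4 fell, which is 8.33% beside 4.97% of all genes in that fit, and without ScASC replicate 3, 1 rose and 5 fell (8.22% beside 4.01%). With the rabbit as a block, 2 rose and 6 fell of 73, beside 8.05% of all genes in that fit.

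Of the genes for processing and release of the cytokines, 0 of 8 tested passed in limma, 2 having an unadjusted p under 0.05. CAPNS1, the small subunit of the calpains that cleave pro-IL-1α, had 263 ± 18.0 RPKM in IPFSCs and 299 ± 31.9 RPKM in ScASCs (SD, n = 4 each), and TMED10, a cargo receptor linked to unconventional secretion of IL-1β, had 325 ± 16.5 RPKM and 277 ± 24.8 RPKM in the same order of cell types. Their log2 fold changes were −0.18 (adjusted p = 0.444) and 0.23 (adjusted p = 0.215). CAPN1, a catalytic calpain subunit, had 31.3 ± 2.80 RPKM in IPFSCs and 43.7 ± 8.55 RPKM in ScASCs (adjusted p = 0.136), and was called lower only without ScASC replicate 1 (adjusted p = 0.0208, with 0.0208 to 0.301 across the fits run). The inflammasome sensor NLRP3 did not exceed 0.307 RPKM in any library, while its adaptor PYCARD had 1.53 ± 0.596 RPKM in IPFSCs and 1.68 ± 0.845 RPKM in ScASCs.

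Adaptors and kinases that carry the signal from the receptor were expressed in both cell types, and 0 of 14 passed the test in limma (3 at an unadjusted p under 0.05). TAB2, which links TRAF6 to the kinase TAK1, had 31.2 ± 2.26 RPKM in IPFSCs and 41.2 ± 5.67 RPKM in ScASCs (SD, n = 4 each), without overlap, a log2 difference of −0.38 (adjusted p = 0.0870). It was called only when the rabbit was a block (adjusted p = 0.0256, with 0.0256 to 0.218 across the fits run). The most abundant of the list, SQSTM1, a scaffold and autophagy receptor, and UBE2V1, a partner of the ubiquitin ligase TRAF6, had log2 differences of −0.20 (adjusted p = 0.861) and −0.13 (adjusted p = 0.737).

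In the NF-κB arm, 2 of the 14 tested genes fell in IPFSCs, both of them inducible genes. TNFAIP3, which encodes the ubiquitin-editing enzyme A20 that shuts off NF-κB signals and is itself induced by them, had 1.97, 1.67, 1.30 and 2.75 RPKM in the IPFSC libraries, against 7.58, 6.52, 4.61 and 9.28 RPKM in the ScASC libraries. All 4 IPFSC libraries lay below all ScASC libraries, and TNFAIP3 fell by 1.44 on the log2 scale (standard error 0.21, adjusted p = 0.00736 in limma). NFKBIZ, an inducible nuclear IκB protein needed for part of the IL-1 response, had 9.74, 6.73, 5.90 and 12.1 RPKM in the IPFSC libraries, against 29.4, 22.9, 20.7 and 18.3 RPKM in the ScASC libraries. It fell by 1.34 on the log2 scale without overlap (standard error 0.22, adjusted p = 0.0116). Both calls held under all alternatives run.

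NFKBIA, the gene of the classical NF-κB inhibitor IκBα and, like TNFAIP3, a feedback gene, had 10.5, 11.5, 12.7 and 27.5 RPKM in the IPFSC libraries, against 39.4, 32.6, 22.7 and 35.5 RPKM in the ScASC libraries. It was lower in the IPFSCs of all 4 rabbits, but IPFSC replicate 4 overlapped with the ScASCs, and the log2 fold change of −1.09 did not pass (adjusted p = 0.0773 in limma). It was called without IPFSC replicate 4 (adjusted p = 0.00638) and when the rabbit was a block (adjusted p = 0.0421, with 0.00638 to 0.200 across the fits run). The subunit gene NFKB1 differed by −0.04 (adjusted p = 0.965) and the kinase gene CHUK by 0.02 (adjusted p = 0.966). NFKBIE, BCL3, NFKB2 and TNIP2 of the same list differed by −0.15, −0.11, −0.12 and −0.18 (adjusted p = 0.734, 0.892, 0.839 and 0.566 in limma). Of the 14 tested genes of this arm, 2 fell and 12 did not pass, which is 14.3% called beside 4.98% of all genes. The median log2 difference was −0.16. The share rests on 2 genes of a list chosen with earlier results of these data known, so no excess is read from it.

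In the MAP kinase arm, 0 of 14 genes passed in limma (1 at an unadjusted p under 0.05). MAP3K8, a kinase downstream of the NF-κB kinases, had 2.46 to 3.09 RPKM in IPFSCs and 2.86 to 10.2 RPKM in ScASCs, a log2 difference of −0.93 (adjusted p = 0.118). It was called without ScASC replicate 3, whose level of 2.86 RPKM was like that of IPFSCs (adjusted p = 0.00965, with 0.00965 to 0.260 across the fits run). FOS and DUSP1, immediate early genes and the most abundant of the list, had log2 differences of 0.02 (adjusted p = 0.993) and −0.10 (adjusted p = 0.965).

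**Figure D3:**
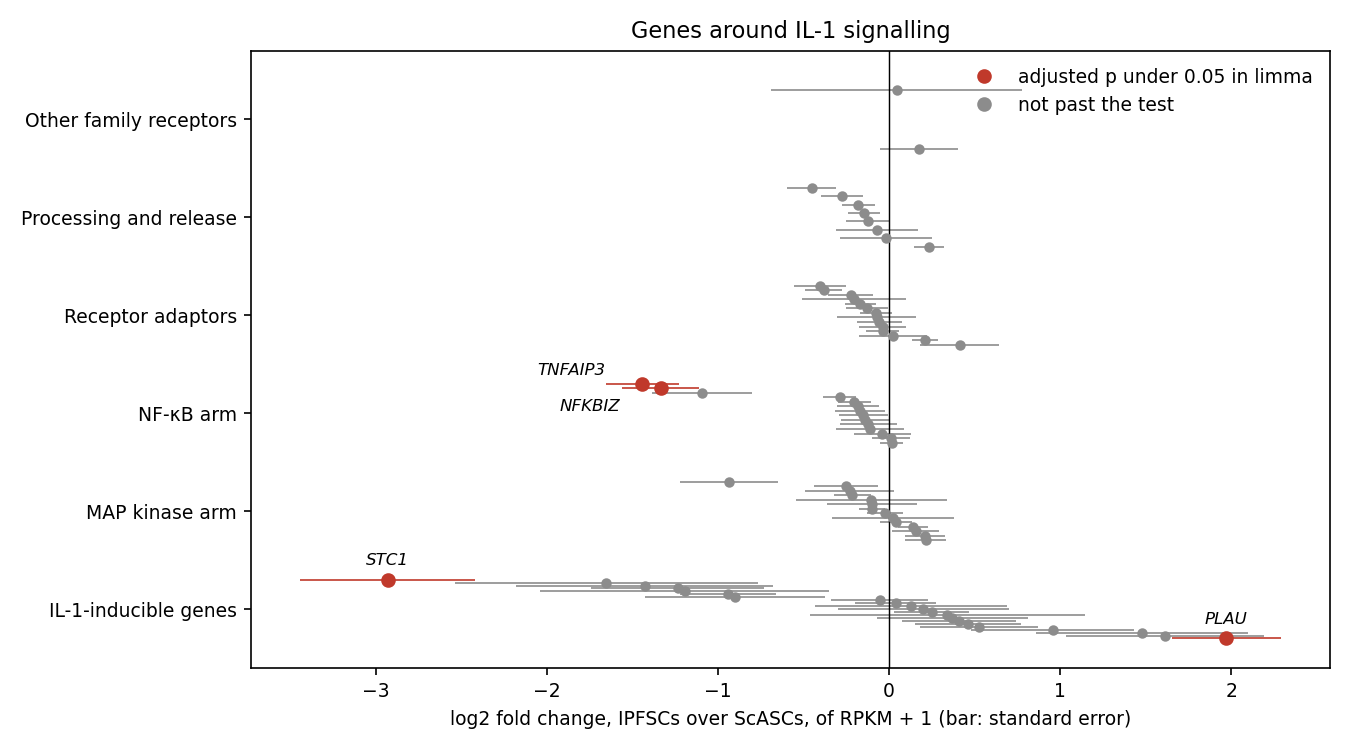
Log2 fold change (IPFSCs over ScASCs, RPKM + 1) of each of the 73 tested genes in 6 lists, with the standard error from limma as a bar. Red points have an adjusted p under 0.05 (TNFAIP3, NFKBIZ, STC1 and PLAU), grey points do not, and most of the adaptor and kinase genes lie near 0.

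Genes that IL-1 can induce in stromal cells did not move in one direction. In limma, 1 of 21 tested rose, 1 fell and 19 were not called (9.52% called, beside 4.98% of all genes), with a median log2 fold change of 0.20. PLAU, the urokinase plasminogen activator, rose to 47.8, 52.3, 65.7 and 68.8 RPKM in the IPFSC libraries, against 19.5, 17.2, 6.23 and 18.0 RPKM in the ScASC libraries, without overlap. Its log2 difference was 1.97 (standard error 0.32, adjusted p = 0.0100). STC1, which encodes the secreted glycoprotein stanniocalcin 1, fell to 34.9, 32.2, 33.0 and 12.9 RPKM in the IPFSC libraries, against 473, 259, 177 and 86.2 RPKM in the ScASC libraries, a log2 difference of −2.93 (standard error 0.51, adjusted p = 0.0135).

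The cytokine and chemokine genes of the list had wide spreads among rabbits. IL6 had 27.8, 27.5, 24.0 and 46.2 RPKM in the IPFSC libraries, against 31.0, 7.50, 2.49 and 10.5 RPKM in the ScASC libraries. It was higher in the IPFSCs of 3 rabbits, with a log2 difference of 1.62 (adjusted p = 0.188 in limma), and was called without ScASC replicate 1 (adjusted p = 0.0255, with 0.0255 to 0.374 across the fits run). CXCL8, the gene of the neutrophil chemoattractant interleukin 8, had 1.93, 1.90, 2.33 and 8.81 RPKM in the IPFSC libraries, against 12.0, 8.94, 3.18 and 14.9 RPKM in the ScASC libraries. Its log2 difference was −1.23 (adjusted p = 0.261), lower in the IPFSCs of 4 of 4 rabbits.

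CCL2, a monocyte chemoattractant, had 14.6 ± 10.6 RPKM in IPFSCs and 4.93 ± 4.14 RPKM in ScASCs (SD, n = 4 each), a log2 difference of 1.48 (adjusted p = 0.274). It was higher in the IPFSCs of all 4 rabbits and was called when the rabbit was a block (adjusted p = 0.0192, with 0.0192 to 0.488 across the fits run). CXCL5, another neutrophil chemoattractant, had 83.2 ± 93.8 RPKM in IPFSCs and 155 ± 85.4 RPKM in ScASCs, a log2 difference of −1.43 (adjusted p = 0.420), lower in the IPFSCs of all 4 rabbits and called with the block (adjusted p = 0.0449, with 0.0449 to 0.690 across the fits run). PTGS2, the inducible cyclooxygenase, had 126 ± 43.0 RPKM in IPFSCs and 73.0 ± 52.5 RPKM in ScASCs (adjusted p = 0.387). CSF3, a neutrophil growth factor gene, had 0.0650 ± 0.0838 RPKM and 1.17 ± 0.789 RPKM in the same order of cell types (adjusted p = 0.108). It entered the test only through its level in ScASCs. It did not enter without ScASC replicate 1 or 4, or with the filter on the mean over all libraries. CSF3 was called lower without ScASC replicate 3, its lowest ScASC library at 0.156 RPKM (adjusted p = 0.0143, with 0.0143 to 0.243 across the fits it entered).

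**Figure D4:**
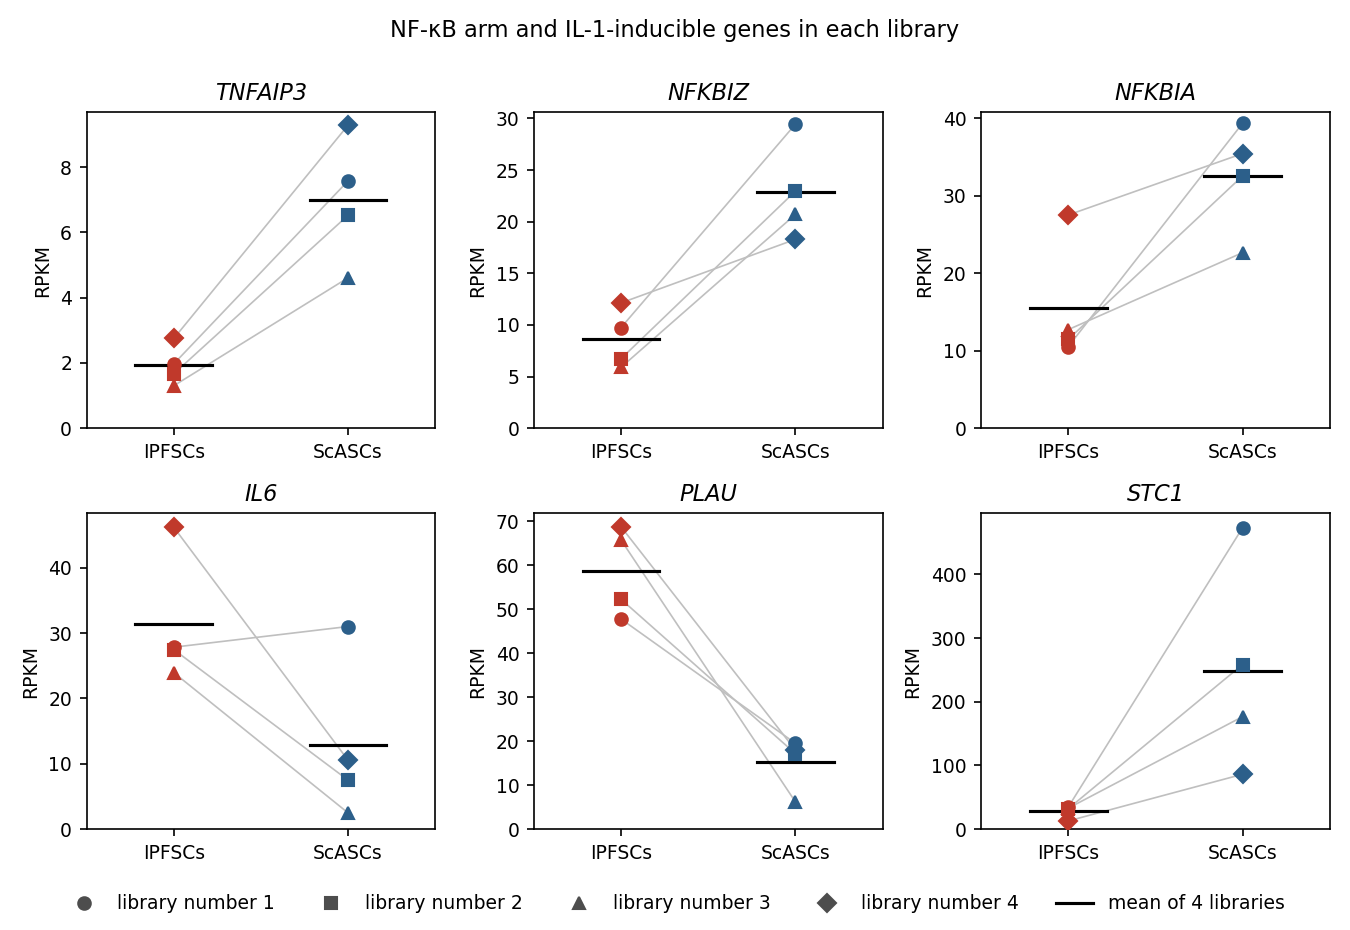
RPKM (linear axes from 0) of TNFAIP3, NFKBIZ, NFKBIA, IL6, PLAU and STC1 in the 4 IPFSC libraries (red, left) and the 4 ScASC libraries (blue, right), with means as black bars and grey lines between libraries of the same number. TNFAIP3, NFKBIZ and STC1 lie lower and PLAU higher in every IPFSC library, while NFKBIA and IL6 overlap.

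The genes whose pattern over the 8 libraries was most like that of IL1A, by Pearson's r of log2(RPKM + 1), were EYA1 (r = 0.989), MEIS1 (0.986), HOXB3 (0.986), PKP2 (0.980) and HOXB2 (0.980). The most opposite were FZD1 (r = −0.990), PPP1R2 (−0.987), TRPS1 (−0.986), SMOC1 (−0.984) and CYTL1 (−0.983). These values are descriptions: the libraries fall into 2 groups by cell type, and r mainly measures that gap. EYA1, a transcriptional coactivator of organ development, had 0.0623 ± 0.0664 RPKM in IPFSCs and 1.45 ± 0.268 RPKM in ScASCs (SD, n = 4 each). PKP2, a plaque protein of desmosomes, had 1.74 ± 0.331 RPKM in IPFSCs and 16.4 ± 4.07 RPKM in ScASCs. FZD1, a WNT receptor, had 44.6 ± 7.76 RPKM in IPFSCs and 17.7 ± 0.417 RPKM in ScASCs.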

How the data were processed

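Paired-end reads of 8 stranded mRNA libraries were, per the study's methods, aligned untrimmed by the authors with Subread to OryCun2.0, counted with featureCounts on the Ensembl annotation and scaled to RPKM. The deposited values follow log2(RPKM + 1), and 1e-05 stands for an RPKM of 0. This scale was read from the values: converted back, 199 to 246 genes of low expression share a single ratio between a library and ScASC replicate 1. The same steps gave the relative depth and, for 7 members, whole reads (tolerance 0.02). Whether counting used strand is not given in the sources used here. The table has 20595 rows; 9 identifiers stand 2 times with identical values and were used once. Columns with the authors' own fold changes and p-values were not used.

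Genes whose average exceeded 1 RPKM in either cell type were tested with limma 3.58.1 (R 4.3.3), with a trend and the cell type as the only term, after a check on simulated data. A count model was not fitted, because the table gives log2 values. Libraries of 1 number were taken as 1 rabbit: their deviations from the group means correlated by 0.534, 0.550, 0.253 and 0.659 across genes for numbers 1 to 4. Number 3 of the ScASCs correlated more, by 0.329, with number 4 of the IPFSCs.

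The members and lists were chosen with earlier results of these data known. Genes are named by rule: all members; in each list the called genes, up to 5 per direction, or else the 2 most abundant; tested genes among other family ligands and receptors; and the 5 most like and 5 most opposite to IL1A. NFKBIA, TAB2, IL6, CXCL8, CCL2, PTGS2, MAP3K8, CXCL5, CAPN1, CSF3, NLRP3, PYCARD, NFKB1, CHUK, NFKBIE, BCL3, NFKB2, TNIP2, IL18R1, IL18RAP, IL36A, IL36G, the flanking genes and matrix proteases were named after their values were seen. Symbols are those of the table, and all 9 of the rule matched RefSeq. Sequences were not used here.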

Additional observations from a re-analysis of the deposited data

Results flagged for a closer look

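In 6 of 66 groups of 4 libraries, the highest or lowest library stood apart from the others by more than the critical value of Dixon's test. The groups are 33 genes in 2 cell types, IL1RL1 left out. That value is set for about 1 in 20 by chance in independent, normally spread values. The RPKM were not on a log scale, the genes share the same libraries, and some were named after their values were seen. The count is therefore not set against that rate. In IPFSCs, replicate 4 was the highest for IL1RN (1.02 RPKM), NFKBIA (27.5 RPKM) and CXCL8 (8.81 RPKM) and the lowest for STC1 (12.9 RPKM), and replicate 1 was the highest for FOS (211 RPKM). In ScASCs, replicate 3 was the highest for IL18BP (7.69 RPKM). IL1RL1 was above 0 only in that library (0.0240 RPKM), which makes it stand apart by construction, so it is not in the count.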

How the results depend on the processing

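The log2 difference of IL1A, −3.02, was −4.08 with a pseudocount of 0.1, which widens the change of low levels, and −3.13 to −2.92 without any 1 library. With that pseudocount IL1RN and IL1RAP moved to −1.66 and −0.63. Their signs and those of IL18, IL1R1 and IL1R2 were kept under all alternatives, with IL1R1 as low as 0.02, IL1R2 as low as 0.34 and IL1RN as near 0 as −0.55 without 1 library. The number of pathway genes called higher was 1, and 2 with the replicate block (PLAU and CCL2). The number called lower was 3, and 6 with the block, which added TAB2, NFKBIA and CXCL5. Without any 1 library the counts were 1 to 2 higher and 3 to 5 lower. TNFAIP3, NFKBIZ, PLAU and STC1 were called in all 16 fits. Over all genes, 301 were called higher and 261 lower, against 487 and 422 with the block, 203 and 166 without IPFSC replicate 1, 166 and 149 without IPFSC replicate 3, and 180 and 168 without ScASC replicate 2. Among the pathway and flanking genes named, CCL2, TAB2, NFKBIA and CXCL5 and no others changed their call under the block. Reads per library over all genes were not recovered, and the low reads of IL1B and IL1RN in IPFSCs limit those values.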

Other observations

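The 6 listed matrix metalloproteinase genes of the IL-1-inducible list did not enter the test, whereas the aggrecanase genes ADAMTS4 and ADAMTS5 did and were not called in limma (adjusted p = 0.981 and 0.668). MMP13, collagenase 3, was listed at 0.0348, 0.399, 1.18 and 1.17 RPKM in the IPFSC libraries and at 0 in all 4 ScASC libraries. MMP3, stromelysin 1, had 0.676 ± 0.420 RPKM in IPFSCs and 0.571 ± 0.341 RPKM in ScASCs (SD, n = 4 each), and MMP9, gelatinase B, had 0.601 ± 0.333 RPKM and 0.372 ± 0.215 RPKM in the same order of cell types.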
